A study of Mus musculus with 8 samples.

Results

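Transcripts of 45 components of TGF-beta and BMP signalling, out of 20863 named genes on the array, were compared between the lungs of 4 Fra-2 transgenic and 4 wild-type mice. The 45 genes were chosen by name from the pathway's ligands, latency proteins, receptors, Smads, inhibitors and targets, and all 45 were measured. The brightest spot of each gene over all 8 arrays stood for it. Transgenic mice are labelled as over-expressing Fra-2, the AP-1 transcription factor subunit encoded by Fosl2, and the wild-type mice carried no transgene according to their label. Both groups were on the C57BL/6 background, 8 weeks old and kept under standard conditions with no treatment, and each mouse gave whole-lung RNA for 1 single-colour Agilent array. The transgene's promoter and the sex of the mice are not given in these sources. Such mice are known to develop fibrosis and vessel remodelling in the lung.

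TGF-beta ligands are secreted in a latent form, held in the matrix by latent TGF-beta binding proteins, and once freed they bring type II and type I receptor kinases together. The type I receptor phosphorylates receptor Smads, Smad2 and Smad3 for TGF-beta and activin and Smad1, Smad5 and Smad9 for BMPs, which join Smad4 and enter the nucleus. Inhibitory Smads, secreted antagonists and ubiquitin ligases limit the signal, and several of them are themselves induced by it. In lung, TGF-beta is known as a driver of matrix production by fibroblasts, and BMP signalling through BMPR2 as a guard of the pulmonary vessel wall: mutations of human BMPR2 cause heritable pulmonary arterial hypertension.

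Levels are log2 normalised intensities, and differences are transgenic minus wild type on that scale. The authors' values shared 1 distribution on the 8 arrays, so no array was brighter than another as a whole. The median of all spots, a log2 level of 4.74, served as the floor for dim signals. Of the 45 genes, 44 lay above it in all 8 mice. All 9 lung epithelial markers examined (among them Sftpc, Ager and Scgb1a1) lay above the floor, as the label lung requires. Fosl2 was read by 2 spots. The brighter gave 10.03, 9.42, 9.38 and 10.62 in transgenic mice and 10.64, 10.12, 10.68 and 11.01 in wild-type mice, and the dimmer gave 6.35, 6.98, 6.68 and 7.85 in transgenic mice and 3.44, 4.41, 4.65 and 5.58 in wild-type mice. The 2 spots therefore pointed opposite ways, and which part of the transcript each reads is not known here. Mouse 4 of either group stood apart: its mean correlation with the rest of its group over all genes was 0.979 in transgenic and 0.976 in wild-type mice, against 0.984 to 0.985 for transgenic mice 1 to 3 and 0.982 to 0.983 for wild-type mice 1 to 3.

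Most of the pathway lay close to its wild-type level. Cd109, a membrane-anchored TGF-beta co-receptor that dampens TGF-beta signalling, was the only one of the 45 genes that passed the test, and it rose at least 3.19-fold in transgenic lung. Inhba, the activin A subunit, stood higher, and Bmpr2, the type II BMP receptor, and Smad6, an inhibitory Smad of the BMP branch, stood lower in every transgenic mouse than in any wild-type mouse, but these 3 did not pass. TGF-beta ligands and their receptors Tgfbr1 and Tgfbr2, the receptor Smads and the targets Id1, Id2, Id3, Snai1 and Snai2 differed by less than 0.5 on the log2 scale.

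By limma with Benjamini-Hochberg adjustment over all 20863 genes, 1 of the 45 genes had an adjusted p under 0.05 (higher in transgenic lung) and 0 were lower, beside 0.216% of all genes in either direction, 0.125% of them higher and 0.0911% lower. Without adjustment, 4 of 45 (8.89%) had a limma p under 0.05, 2 higher and 2 lower, beside 9.15% of all genes (5.33% higher, 3.82% lower). The values of the groups did not overlap for the same 4 genes (8.89%), beside 6.53% of all genes (3.99% higher, 2.54% lower). Apart from the single gene that passed, these shares lie near those of all genes. The median difference was -0.05 over the 45 genes and 0.01 over all genes, and 27 of the 45 differences were negative (60%), beside 47.6% over all genes. Of the 45 differences, 41 were smaller than 0.5 in size, and for 40 genes the 95% confidence interval lay wholly between -1 and 1. With 8 arrays, smaller differences than these intervals allow could not be told from 0.

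**Figure D1:**
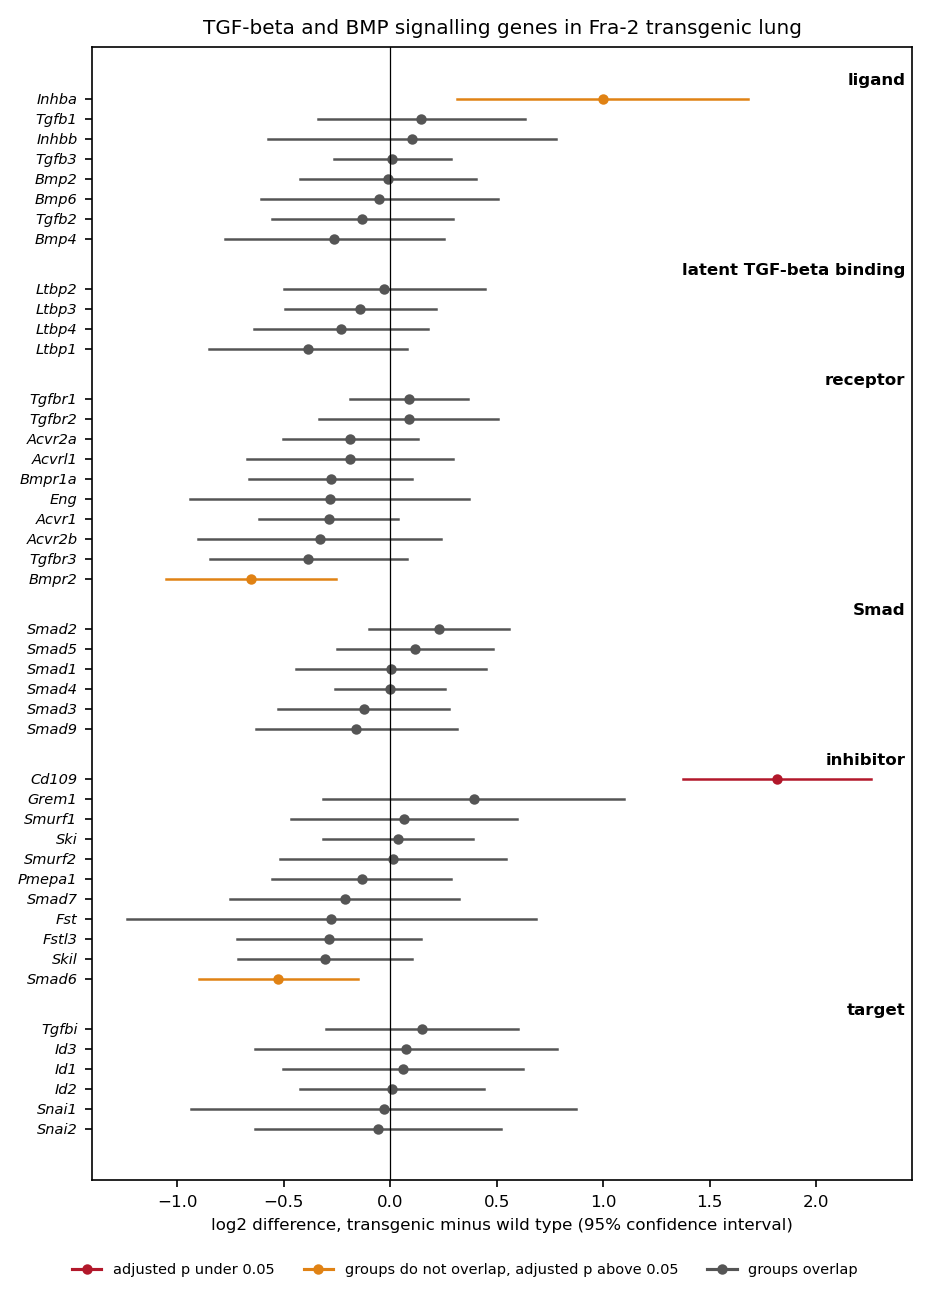
Log2 difference, transgenic minus wild type, of each of the 45 genes with its 95% confidence interval from limma, by role and sorted by size within each role (4 mice per group). Cd109 (1.82) stands apart on the right, Inhba, Bmpr2 and Smad6 have intervals that leave out 0, and the other 41 intervals cross it.

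Among the 8 ligands, 4 differences were positive and 4 negative, with a median of 0.00, and 0 passed. Inhba encodes the beta A chain of activin A, a TGF-beta family ligand that signals through Smad2 and Smad3. Its log2 level was 6.79, 6.21, 6.27 and 6.998 in transgenic mice 1 to 4, and 6.11, 5.17, 5.95 and 5.05 in wild-type mice 1 to 4. The lowest transgenic value, in mouse 2, lay just above the highest wild-type value, in mouse 1, so the groups touched without overlapping. Inhba averaged 6.57 ± 0.39 in transgenic and 5.57 ± 0.53 in wild-type mice (SD, n = 4 each), 2.00-fold higher (difference 1.00, SE 0.30, limma adjusted p = 0.350 over all genes). An exact permutation test over the mice gave p = 0.0286, two-sided, the smallest that 4 against 4 allows. Any gene whose groups do not overlap gets that p, so it only restates the lack of overlap, seen for 6.53% of all genes. Without both mice numbered 4 the difference was 0.68 (limma adjusted p = 0.490), and with an offset of 32 added to the intensities it was 0.66. Inhbb, the beta B chain, stood at 9.59, 9.60, 9.86 and 10.91 in transgenic mice and at 9.74, 10.08, 9.70 and 10.02 in wild-type mice. Transgenic mouse 4 stood apart from the other 3, and the groups overlapped (difference 0.10, SE 0.29).

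Tgfb1, the TGF-beta isoform most tied to fibrosis, was read by 10 spots. Its brightest spot gave 9.57, 9.77, 9.55 and 9.54 in transgenic mice and 9.64, 9.77, 9.61 and 8.82 in wild-type mice. The transgenic values lay within the wild-type range, and wild-type mouse 4 was low. The difference was 0.15 (SE 0.21, 95% confidence interval -0.34 to 0.63, limma adjusted p = 0.869). Wild-type mouse 4 was the lowest wild-type mouse in all 10 spots, at 7.84 to 8.82, against 8.88 to 9.77 in the 4 transgenic mice and 8.93 to 9.80 in wild-type mice 1 to 3. Every spot gave a positive difference, from 0.09 to 0.49. Without wild-type mouse 4 the differences of 5 spots were positive and those of the other 5 negative, from -0.16 to 0.23, and that of the brightest spot was -0.066. With both mice numbered 4 left out the brightest spot differed by -0.045 (limma adjusted p = 0.915). The per-mouse median over the 10 spots averaged 9.29 ± 0.10 in transgenic and 9.10 ± 0.49 in wild-type mice (SD, n = 4 each; exact permutation p = 0.743, two-sided).

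Tgfb3 was also read by 10 spots, and its levels were close to each other in all 8 mice. The per-mouse median over its spots averaged 10.85 ± 0.03 in transgenic and 10.82 ± 0.11 in wild-type mice (SD, n = 4 each; exact permutation p = 0.657, two-sided), with 7 spots higher and 3 lower in transgenic lung. The 95% confidence interval for its brightest spot, -0.26 to 0.28, was among the narrowest of the 45. Tgfb2 differed by -0.13 (SE 0.18) in its brighter spot and by -0.14 in its dimmer one. Of the BMP ligands, Bmp2 differed by -0.01, Bmp6 by -0.05 and Bmp4 by -0.26 (SE 0.18, 0.24 and 0.22). Bmp4 stood at 11.71 in transgenic mouse 4, well under the 12.39 to 12.48 of transgenic mice 1 to 3, against 12.22 to 12.80 in wild-type mice.

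**Figure D2:**
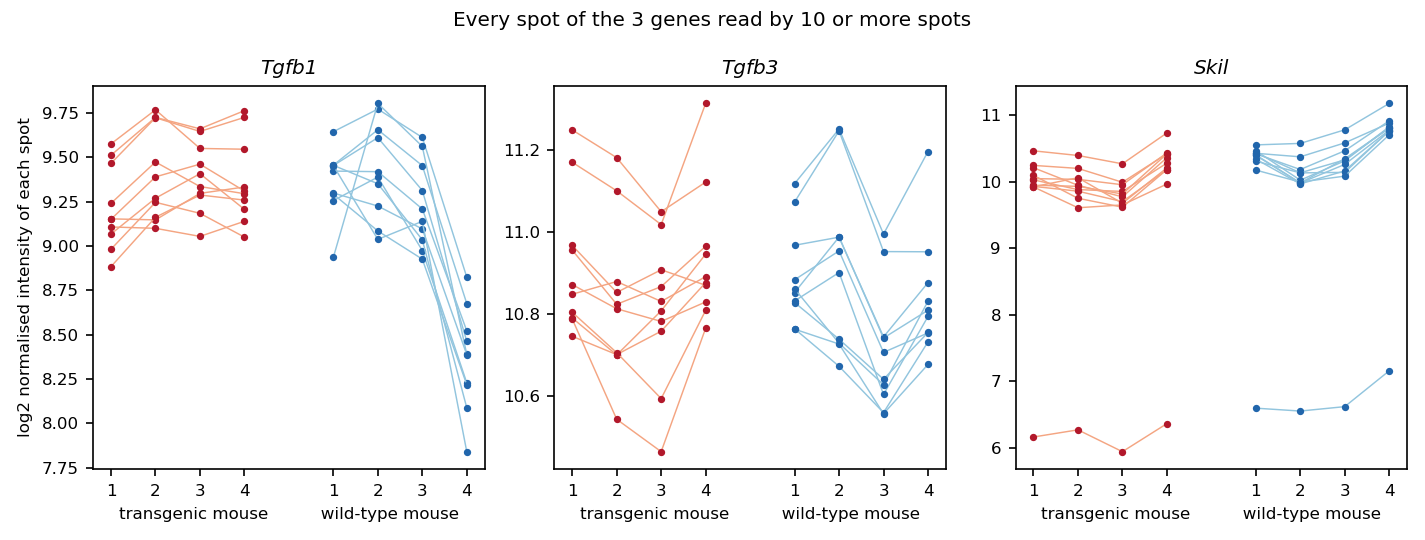
Log2 normalised intensity of every spot above the floor for Tgfb1 (10 spots), Tgfb3 (10) and Skil (11), by mouse, transgenic on the left of each panel and wild type on the right. Thin lines join the values of 1 spot and carry no order of the mice; all Tgfb1 spots dip in wild-type mouse 4, and all Skil spots peak there.

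The 4 latent TGF-beta binding proteins, which anchor latent TGF-beta in the matrix, had negative differences with all mice (median -0.18) and 0 passed. The differences of Ltbp2 (0.18) and Ltbp3 (0.01) were positive without both mice numbered 4, and the median of the 4 was then -0.06. Ltbp1 stood at 9.52, 9.75, 9.63 and 9.63 in transgenic mice and at 10.03, 9.76, 9.69 and 10.59 in wild-type mice. Its groups overlapped only through wild-type mouse 3, and the highest value was that of wild-type mouse 4 (difference -0.39, SE 0.20, limma adjusted p = 0.619). Without both mice numbered 4 it differed by -0.19. Ltbp2, Ltbp3 and Ltbp4 differed by -0.03, -0.14 and -0.23. Ltbp4, a component of elastic fibres, was read by 3 spots above the floor that disagreed: its 2 brighter spots differed by -0.23 and -0.05 and its dimmest, near the floor, by 0.87.

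Of the 10 receptors 8 had negative differences (median -0.28), 0 passed the test and 1 had groups that did not overlap. Bmpr2 encodes the type II receptor that binds BMPs. Its log2 level was 11.52, 11.63, 11.32 and 11.02 in transgenic mice 1 to 4, and 12.30, 12.05, 11.92 and 11.83 in wild-type mice 1 to 4. All 4 transgenic values lay below all 4 wild-type values, with a gap between transgenic mouse 2 and wild-type mouse 4. Bmpr2 averaged 11.37 ± 0.27 in transgenic and 12.03 ± 0.21 in wild-type mice (SD, n = 4 each), 1.57-fold lower in transgenic lung (difference -0.65, SE 0.17, 95% confidence interval -1.05 to -0.26). The limma adjusted p was 0.278 over all genes, and the exact permutation p was 0.0286, two-sided. With any 1 mouse left out the difference ran from -0.74 to -0.54, and without both mice numbered 4 it was -0.60.

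The other receptors of the BMP branch had negative differences of smaller size, with groups that overlapped. Acvr1, a type I BMP receptor, stood at 11.01, 10.93, 10.69 and 10.81 in transgenic mice and at 11.22, 10.94, 11.05 and 11.40 in wild-type mice (difference -0.29, SE 0.14, limma adjusted p = 0.594). Only transgenic mouse 1 reached into the wild-type range. Bmpr1a, another type I BMP receptor, differed by -0.28 (SE 0.17), and Acvr2a and Acvr2b, type II receptors for activins and BMPs, by -0.19 and -0.33. For Acvr2b transgenic mouse 4 stood at 10.01, against 11.02 to 11.10 in transgenic mice 1 to 3 and 11.01 to 11.27 in wild-type mice, and without both mice numbered 4 the difference was -0.06. Acvrl1, the endothelial type I receptor for BMP9 and BMP10, and Eng, its co-receptor endoglin, differed by -0.19 (SE 0.21) and -0.28 (SE 0.29). For Eng both mice numbered 4 were the lowest of their groups, at 11.28 in transgenic and 11.71 in wild-type lung. Without both mice numbered 4, the median over the 10 receptors was -0.12.

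The TGF-beta receptors themselves lay close to their wild-type levels. Tgfbr1, the type I receptor, had values of 9.96, 10.03, 9.89 and 9.94 in transgenic mice and of 9.90, 9.80, 9.70 and 10.07 in wild-type mice (difference 0.09, SE 0.12, 95% confidence interval -0.19 to 0.36, limma adjusted p = 0.863). The transgenic values sat inside the wild-type range. Tgfbr2, the type II receptor, had values of 13.34, 13.11, 13.29 and 12.95 in transgenic mice and of 13.37, 13.12, 13.22 and 12.63 in wild-type mice (difference 0.09, SE 0.18, limma adjusted p = 0.916). A second, dimmer Tgfbr2 spot pointed the other way, at 7.63, 7.96, 7.43 and 7.96 in transgenic mice and 8.10, 7.98, 8.02 and 8.14 in wild-type mice (difference -0.32, groups not overlapping), so the sign depends on the spot. Tgfbr3, the co-receptor betaglycan, differed by -0.38 (SE 0.20), with transgenic mouse 4 at 10.47 below the 11.06 to 11.17 of transgenic mice 1 to 3.

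Marker genes of cell types in the lung were measured beside the receptors. All 8 smooth muscle markers examined had negative differences (median -0.38, 4 at an unadjusted limma p under 0.05, 0 passing; 3.82% of all genes were lower at that p), and their summed intensity was 27650 to 34686 in transgenic mice and 35689 to 46280 in wild-type mice. Of 9 endothelial markers 7 had positive differences (median 0.22), and their summed intensity was 90616 to 109429 in transgenic and 84223 to 99178 in wild-type mice. Of 9 fibroblast markers 6 had positive differences, with summed intensities of 58723 to 76623 in transgenic and 58118 to 71081 in wild-type mice. The endothelial and fibroblast sums overlapped between groups, and 0 of these markers passed. At an unadjusted limma p under 0.05, 2 of the 9 endothelial and 1 of the 9 fibroblast markers were higher and 0 were lower. Without adjustment, 9 of 10 T and NK cell markers had a limma p under 0.05, and they went both ways. The 5 higher in transgenic lung were Cd3d, Cd3e, Cd3g, Cd8a and Lat (5.33% of all genes were higher at that p). The 4 lower were Gzma, Ncr1, Nkg7 and Prf1. After adjustment 2 passed, both lower in transgenic lung. These were Gzma, which encodes granzyme A (difference -3.97, limma adjusted p = 0.00709), and Ncr1, an NK cell receptor gene whose transgenic mean lay under the floor (limma adjusted p = 0.0150). The list's summed intensity was 4458 to 6436 in transgenic mice and 8891 to 15575 in wild-type mice. Gzma was the list's brightest gene in wild-type lung, at a mean of 12.97, so this sum leans on it. Of 7 macrophage markers 6 had positive differences (median 0.28). The 1 negative was Marco, a scavenger receptor gene and the only one of the 7 that passed (difference -2.08, limma adjusted p = 0.0105). Macrophage summed intensities overlapped, at 52785 to 85368 in transgenic and 36335 to 68444 in wild-type mice. Single markers are named here after their values were seen, Gzma, Ncr1 and Marco because they passed. The other T and NK cell genes are named for their unadjusted p. The part of these cell types in the values of the signalling genes was not tested. In whole-lung RNA, fewer cells of a type and less RNA per cell cannot be told apart.

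**Figure D3:**
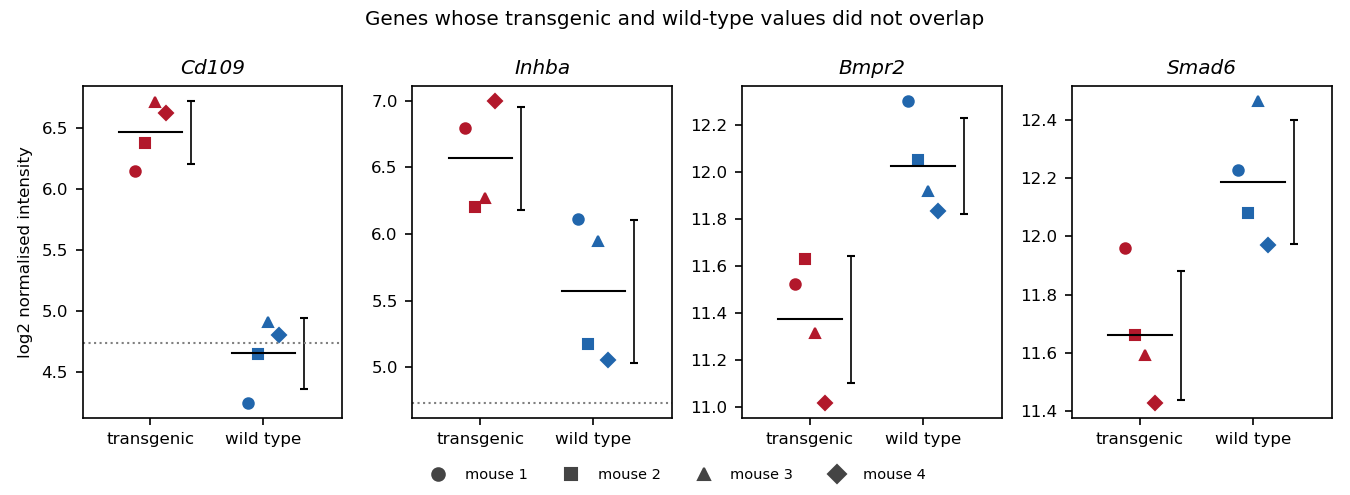
Log2 normalised intensity of Cd109, Inhba, Bmpr2 and Smad6 in each mouse (symbols mark mouse numbers), transgenic left and wild type right, with the group mean as a line and the SD as a bar beside it; each panel has its own scale. The dotted line is the floor of 4.74. Cd109 and Inhba lie higher, and Bmpr2 and Smad6 lower, in every transgenic mouse than in any wild-type mouse; of the 4 only Cd109 passed the test.

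The 6 receptor and common Smads had differences between -0.16 and 0.23, 3 positive and 3 negative, with a median of 0.00, and 0 passed. Smad3, a mediator of TGF-beta and activin signals, stood at 10.98, 11.50, 11.20 and 10.85 in transgenic mice and at 11.00, 11.44, 11.29 and 11.30 in wild-type mice. The groups overlapped over most of their range (difference -0.12, SE 0.17, limma adjusted p = 0.864). Smad2 differed by 0.23 (SE 0.14), and Smad4, the partner shared by all receptor Smads, by -0.00 in its brighter spot with a 95% confidence interval of -0.26 to 0.26. The dimmer Smad4 spot, at a mean of 11.30, differed by 0.23 (SE 0.16). The dimmer Smad3 spot, at a mean of 5.10, differed by -0.44 (SE 0.27). Of the BMP Smads, Smad1 differed by 0.00, Smad5 by 0.12 and Smad9 by -0.16. Smad5 stood at 12.01 to 12.12 in the 4 transgenic mice and at 11.78 to 11.82 in wild-type mice 1 to 3, while wild-type mouse 4 was at 12.40. Without both mice numbered 4 the Smad5 groups did not overlap (difference 0.26, SE 0.09, limma adjusted p = 0.365).

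The 11 inhibitors held both the largest positive difference and the second largest negative one of the 45 genes. Cd109 encodes a protein tethered to the cell surface by a lipid anchor that binds TGF-beta and its receptors. Its log2 level was 6.15, 6.38, 6.72 and 6.63 in transgenic mice 1 to 4, and 4.25, 4.65, 4.91 and 4.80 in wild-type mice 1 to 4. The lowest transgenic value lay more than 1 log2 unit above the highest wild-type value, and 2 of the 4 wild-type values lay under the floor. Cd109 averaged 6.47 ± 0.26 in transgenic and 4.65 ± 0.29 in wild-type mice (SD, n = 4 each; fitted difference 1.82, SE 0.19, limma adjusted p = 0.0105; exact permutation p = 0.0286, two-sided). Because wild-type lung averaged less than the floor, only a lower bound can be given for the fold, at least 3.19. The call was lost without transgenic mouse 3 (difference 1.73, limma adjusted p = 0.0521) or wild-type mouse 2 (1.81, limma adjusted p = 0.0503). It was also lost with both mice numbered 4 left out (1.81, limma adjusted p = 0.0833). With an offset of 32, which shrinks dim differences, the difference was 1.07 and still passed (limma adjusted p = 0.00442). Cd109 was read by 1 spot.

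Smad6 and Smad7 are the inhibitory Smads; Smad6 acts mainly on BMP signals and Smad7 on both branches, and both are induced by the pathways they limit. Smad6 stood at 11.96, 11.66, 11.59 and 11.43 in transgenic mice 1 to 4, and at 12.23, 12.08, 12.46 and 11.97 in wild-type mice 1 to 4. The highest transgenic value, in mouse 1, almost met the lowest wild-type value, in mouse 4. Smad6 averaged 11.66 ± 0.22 in transgenic and 12.19 ± 0.21 in wild-type mice (SD, n = 4 each), 1.44-fold lower in transgenic lung (difference -0.52, SE 0.16, limma adjusted p = 0.366; exact permutation p = 0.0286, two-sided). Smad7 stood at 10.25, 10.37, 10.18 and 9.66 in transgenic mice and at 10.53, 10.37, 10.64 and 9.76 in wild-type mice. Mouse 4 was the lowest of each group, and the groups overlapped through wild-type mouse 4 alone (difference -0.21, SE 0.23, limma adjusted p = 0.815). Without both mice numbered 4 the Smad7 groups did not overlap either (difference -0.25, limma adjusted p = 0.512).

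Skil encodes SnoN, a nuclear repressor of Smad activity that TGF-beta signalling both degrades and induces. All 11 Skil spots had negative differences, from -0.55 to -0.31, and in all 11 wild-type mouse 4 was the highest wild-type mouse. The per-mouse median over the spots was 10.03, 9.93, 9.78 and 10.28 in transgenic mice and 10.41, 10.03, 10.32 and 10.81 in wild-type mice. Transgenic mice 1 and 4 reached into the wild-type range, and the exact permutation p was 0.0857, two-sided (difference -0.38). In 2 of the 11 spots the groups did not overlap. The brightest spot, which stands for the gene, differed by -0.31 (SE 0.18, limma adjusted p = 0.648). Ski, the related repressor, differed by 0.04 (SE 0.15).

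Fst, which encodes the activin-binding protein follistatin, stood at 8.05, 7.17, 7.29 and 8.86 in transgenic mice and at 8.55, 7.67, 8.62 and 7.63 in wild-type mice (difference -0.28, SE 0.42). Fst differed by -0.78 without both mice numbered 4 (SE 0.35, limma adjusted p = 0.504). Mice 1 and 4 were the highest transgenic mice and mice 1 and 3 the highest wild-type mice for Fst, the same mice that were highest for Inhba. Grem1, the BMP antagonist gremlin, stood at 5.80, 5.27, 5.01 and 6.04 in transgenic mice and at 5.86, 5.06, 4.83 and 4.81 in wild-type mice (difference 0.39, SE 0.31), and without both mice numbered 4 it differed by 0.11 (SE 0.34). It too was highest in mice 1 and 4 among transgenic mice. Fstl3, a follistatin relative that binds activin, stood at 9.89, 9.72, 9.77 and 9.33 in transgenic mice and at 10.24, 10.03, 10.04 and 9.54 in wild-type mice (difference -0.29, SE 0.19, limma adjusted p = 0.687). Mouse 4 was lowest in each group, and without both mice numbered 4 the groups did not overlap (difference -0.31, limma adjusted p = 0.378). The ubiquitin ligases Smurf1 and Smurf2, which mark receptors and Smads for breakdown, differed by 0.06 and 0.01, and Pmepa1, a TGF-beta-induced membrane protein that holds back Smad2 and Smad3, by -0.13. The 0.01 is that of the brightest Smurf2 spot. The 2 dimmer Smurf2 spots differed by -0.44 (SE 0.20) and -0.18 (SE 0.16), with groups that overlapped.

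The 6 targets differed by -0.06 to 0.15 and 0 passed. Id1, a BMP-induced inhibitor of helix-loop-helix factors, stood at 13.18, 12.46, 12.94 and 12.74 in transgenic mice and at 12.85, 12.13, 13.06 and 13.03 in wild-type mice. The groups overlapped over most of their range (difference 0.06, SE 0.25, 95% confidence interval -0.50 to 0.62, limma adjusted p = 0.964), and the sign turned without transgenic mouse 1 (-0.06) or wild-type mouse 2 (-0.15). Id2 and Id3 differed by 0.01 and 0.07. Id3 stood at 11.36 in wild-type mouse 4, against 11.86 to 12.57 in transgenic mice and 12.47 to 12.66 in wild-type mice 1 to 3. Tgfbi, a matrix protein named for its induction by TGF-beta, differed by 0.15 (SE 0.20). Snai1 and Snai2, transcription factors of epithelial-mesenchymal transition, differed by -0.03 (SE 0.39) and -0.06 (SE 0.25). The interval for Snai1, -0.94 to 0.87, was among the widest of the 45.

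Promoter sequences are shown for Inhba, Bmpr2 and Smad6, genes whose groups did not overlap, because Fra-2 is a DNA-binding factor and Smad6 a known Smad target. Cd109, whose groups did not overlap either, had no window in the source used. Each runs 5′ to 3′ on the gene's strand from 250 bases before to 50 bases after the start of transcription, from RefSeq on GRCm38.p6. The windows lie at chr13:16011601-16011900 (plus strand) for Inhba, chr1:59764029-59764328 (plus strand) for Bmpr2 and chr9:64022010-64022309 (minus strand) for Smad6. Capitals mark a match to one of the motifs searched.
Inhba: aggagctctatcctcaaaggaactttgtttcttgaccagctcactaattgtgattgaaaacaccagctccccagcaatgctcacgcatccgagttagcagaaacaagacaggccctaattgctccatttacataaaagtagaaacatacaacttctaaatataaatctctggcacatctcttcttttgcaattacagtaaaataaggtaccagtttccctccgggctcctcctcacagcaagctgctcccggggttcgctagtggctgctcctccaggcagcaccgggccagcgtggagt
Bmpr2: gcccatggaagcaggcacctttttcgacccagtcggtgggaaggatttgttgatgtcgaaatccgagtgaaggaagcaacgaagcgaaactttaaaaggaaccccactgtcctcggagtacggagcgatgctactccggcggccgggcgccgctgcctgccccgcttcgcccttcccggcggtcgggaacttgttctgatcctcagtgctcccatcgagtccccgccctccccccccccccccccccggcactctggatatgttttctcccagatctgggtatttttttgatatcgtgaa
Smad6: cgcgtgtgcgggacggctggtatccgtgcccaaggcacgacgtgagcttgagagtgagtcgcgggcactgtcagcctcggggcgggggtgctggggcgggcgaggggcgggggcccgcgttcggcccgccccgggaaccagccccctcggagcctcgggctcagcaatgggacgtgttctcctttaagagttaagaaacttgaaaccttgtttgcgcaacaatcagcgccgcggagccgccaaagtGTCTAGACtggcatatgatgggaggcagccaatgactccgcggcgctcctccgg

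The search covered the AP-1 motif TGANTCA and the palindromic Smad box GTCTAGAC, each of which reads the same on both strands. No match of one overlapped a match of the other in these windows. RefSeq windows were matched for 32 of the 45 genes, and Cd109, the gene that passed, was not among them and was not searched. The Smad box was found in 1 of the 32, Smad6, where it spans the start of transcription from 4 bases before it, and in 0.248% of all 27025 genes with a window (0.213% of 32851 windows). The AP-1 motif was found in 1 of the 32, Ltbp3 (match TGAGTCA, 6 bases before the start; difference -0.14), and in 8.97% of all genes (7.81% of windows). None of the 3 windows printed holds it. A match is a string of letters in this window and was not tested as a binding site.

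Further pathway genes were taken from a fixed list of 76, of which 74 were measured. By limma 0 of the 74 passed over all genes, 6 had an unadjusted p under 0.05 (8.11%, 3 higher and 3 lower) and 6 had groups that did not overlap (8.11%, 2 higher and 4 lower), with a median difference of -0.03. These shares lie near the 9.15% and 6.53% of all genes. Gdf15, a stress-induced TGF-beta family member, had the smallest p: it stood at 8.08, 6.70, 7.30 and 8.13 in transgenic mice and at 9.54, 8.65, 9.91 and 9.01 in wild-type mice. All transgenic values lay below all wild-type values, and Gdf15 averaged 7.55 ± 0.68 in transgenic and 9.28 ± 0.56 in wild-type mice (SD, n = 4 each; 3.31-fold lower, difference -1.73, SE 0.39, limma adjusted p = 0.201). Atoh8, a BMP-induced transcription factor, stood at 6.82, 7.06, 6.32 and 6.39 in transgenic mice and at 7.44, 7.19, 7.28 and 6.92 in wild-type mice. Its groups overlapped through transgenic mouse 2 (difference -0.56, SE 0.20, limma adjusted p = 0.463). Ctdspl, a phosphatase, stood at 13.59, 13.50, 13.53 and 12.64 in transgenic mice and at 13.74, 13.68, 13.79 and 13.91 in wild-type mice (difference -0.47, SE 0.22). Its difference was -0.24 without transgenic mouse 4 and -0.20 without both mice numbered 4.

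Gdf10, which encodes BMP3b, stood at 7.68, 7.28, 7.66 and 7.21 in transgenic mice and at 6.95, 7.09, 7.19 and 7.10 in wild-type mice (difference 0.38, SE 0.15, limma adjusted p = 0.502). Id4 stood at 8.15, 8.11, 8.03 and 7.94 in transgenic mice and at 7.88, 7.77, 7.70 and 7.88 in wild-type mice (difference 0.25, SE 0.11). For both genes the groups did not overlap, with the transgenic mice higher by a narrow margin. Sost and Bambi lay under the floor in all 8 mice, at 2.96 and 4.21 in transgenic and 3.86 and 3.48 in wild-type lung on average, so no fold is given. Hjv averaged 4.76 in transgenic mice and 4.04, under the floor, in wild-type mice, at least 1.02-fold. Ccn2, a TGF-beta target of fibroblasts, differed by -0.39 (SE 0.18, limma adjusted p = 0.575), Thbs1, which can free latent TGF-beta, by -0.74 (SE 0.41), and the type I receptor Acvr1b by -0.29 (SE 0.16). These 3 were chosen after their values were seen.

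Mouse 4 of either group was often the lowest of its group for genes of this pathway. Transgenic mouse 4 was the lowest of its group for 25 of the 45 genes (55.6%), beside 34.7% of all genes, and the highest for 11 (24.4%, beside 32.1%). Wild-type mouse 4 was the lowest of its group for 24 of the 45 (53.3%), beside 33.7% of all genes, and the highest for 9 (20%, beside 33.8%). Both held for 16 genes (35.6%, beside 13.6% of all genes): Tgfb1, Bmp4, Bmp6, Ltbp4, Tgfbr2, Acvr2a, Acvrl1, Eng, Bmpr2, Smad9, Smad6, Smad7, Smurf2, Fstl3, Id3 and Snai1. Beside this, the summed intensity of the 9 endothelial markers was 90616 in transgenic mouse 4, against 98857 to 109429 in transgenic mice 1 to 3, and 84223 in wild-type mouse 4, against 92114 to 99178 in wild-type mice 1 to 3. The 6 cardiac muscle markers summed to 7073 in transgenic mouse 4, against 29735 to 38630 in transgenic mice 1 to 3, and to 21192 in wild-type mouse 4, against 24049 to 57974 in wild-type mice 1 to 3. The 9 lung epithelial markers summed to 345320 in transgenic mouse 4, against 377807 to 379997 in transgenic mice 1 to 3. Wild-type mouse 4, at 377287, lay only just under the 378531 to 385181 of wild-type mice 1 to 3. Sftpc, Scgb1a1 and Sftpd averaged at the scanner maximum or just under it in both groups, so this sum says little about them. The 7 macrophage markers were highest in transgenic mouse 4 (85368) and lowest in wild-type mouse 4 (36335). The 9 fibroblast markers were highest in mouse 4 of each group, at 76623 in the transgenic and 71081 in the wild-type mouse. The 7 ciliated cell markers were lowest in transgenic mouse 4 (14383) and highest in wild-type mouse 4 (26963). T and NK cell markers were highest in transgenic mouse 4 (6436) and lowest in wild-type mouse 4 (8891). Smooth muscle sums of both mice numbered 4 lay inside their groups' ranges. The part of tissue content in these values was not tested. Leaving out wild-type mouse 4 raised the number of genes without overlap to 7 of 45 (Smad5, Fstl3 and Smad7 joined), beside 11.8% of all genes. Leaving out both mice numbered 4 raised it to 8 of 45 (Smad5, Fstl3, Smad7 and Skil joined), beside 17.7% of all genes, and 0 of 45 then passed the adjusted threshold, beside 0.0815% of all genes.

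**Figure D4:**
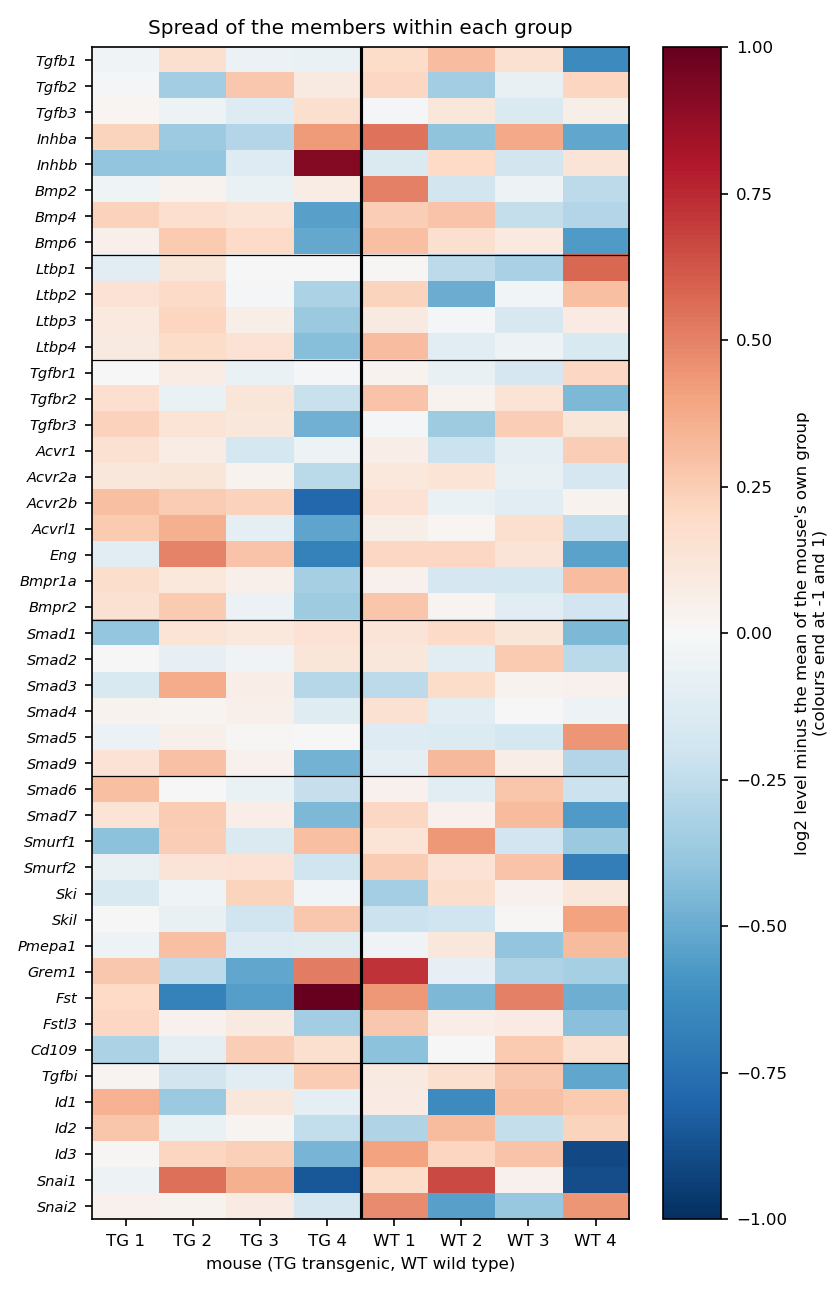
Log2 level of each of the 45 genes in each mouse minus the mean of that mouse's own group, transgenic mice left and wild-type mice right; rows are grouped by role as in the text, from ligands at the top to targets at the bottom. Blue cells gather in the columns of mouse 4 of either group, which is the lowest of its group for 25 (transgenic) and 24 (wild type) of the 45 genes.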

How the data were processed

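Whole-lung RNA of 4 transgenic and 4 wild-type mice was hybridised to 1 single-colour Agilent array per mouse, with Cy5 label, per the labels' protocols. Linear intensity values of 62976 spots were deposited by the authors. R 2.15.1 and limma 3.14.4 are named in the submitters' processing notes, and how background was corrected and arrays were normalized is not stated in the labels. The deposited arrays share 1 distribution (median 26.6 on each). No flags for dim or saturated spots were used here, and the number of arrays limits the precision. Spots were named from the platform annotation (31465 with 1 symbol, none with several, 31511 unnamed here), with symbols updated through RefSeq accessions to GRCm38.p6 names for 29050 spots. This gave 20863 genes, each read from its brightest spot.

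A limma model (version 3.58.1, R 4.3.3) with a single group term was fitted to log2 intensities without an offset, and was tested on simulated data. Benjamini-Hochberg adjustment ran over all genes at a threshold of 0.05; SE is the moderated standard error. For a group averaging less than the floor of 4.74, a fold is the brighter mean against the dimmer group with each array raised to the floor. Single genes also had an exact permutation test over the mice, unadjusted, whose p is the smallest possible for any gene with groups that do not overlap. Every member was accounted for; values of each mouse are given for members that passed, whose groups did not overlap or whose unadjusted p was under 0.05, and for Tgfb1, Tgfbr1, Tgfbr2, Smad3, Smad7, Bmpr2 and Id1 whatever their values. Other members shown by mouse were chosen after their values were seen. From the list of other pathway genes the same rule took up to 8 with the smallest p. The members and lists were chosen with earlier results of these data known. Figures were drawn with matplotlib 3.10.9.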

Additional observations from a re-analysis of the deposited data

Results flagged for a closer look

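In 15 of 106 groups of 4 values examined (45 signalling genes and 8 further pathway genes in each group), 1 mouse lay far from the other 3 by Dixon's test. Its nominal rate is about 1 of 20 independent groups, but genes here share the same mice. The share over all genes was not computed, so the count cannot be called particular to these genes. Over all genes, mouse 4 was the lowest of its group for 34.7% (transgenic) and 33.7% (wild type), and the highest for 32.1% and 33.8%. Of the 15, 6 were transgenic mouse 4 and 7 were wild-type mouse 4. Transgenic mouse 4 was low for Bmp4 (11.71), Ltbp4 (13.59), Tgfbr3 (10.47), Acvr2b (10.01), Smad4 (11.79) and Ctdspl (12.64). Wild-type mouse 4 was low for Tgfb1 (8.82), Eng (11.71), Smad1 (6.88), Smurf2 (10.05), Id3 (11.36) and, under the floor for dim signals, Bambi (2.86). It was high for Smad5 (12.40). The other 2 were transgenic mouse 2, high for Tgfb1 (9.77), and transgenic mouse 1, low for Smad1 (6.94). For Tgfb1 the low value of wild-type mouse 4 was seen in all 10 spots.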

How the results depend on the processing

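Results were recomputed under 17 alternatives: another scaling, offsets of 16 and 32, dim genes left out, the mean of all spots or the dimmest spot above the floor, another variance model, mouse number as a replicate block, each mouse left out and both mice numbered 4 left out. The scaling changed nothing, as the arrays were already alike in distribution. The count of genes called, 1, became 0 with the replicate block (Cd109 adjusted p = 0.0526) and 0 without both mice numbered 4. It ran from 0 to 1 with 1 mouse left out. Deviations of same-numbered mice correlated at -0.01 to 0.05 over all genes, dim ones included. That cannot exclude an effect shared by same-numbered mice on some of the genes. Both mice numbered 4 were the lowest of their groups for 35.6% of the signalling genes, beside 13.6% of all genes. Whether mouse numbers pair the mice was not tested further. The block changed no other call among the named genes. The count without overlap between groups, 4, became 8 without both mice numbered 4 and ran from 4 to 7 with 1 mouse left out. The count at an unadjusted p under 0.05 ran from 4 to 6 over all alternatives, the median difference from -0.11 to -0.03, and 0 of the further pathway genes were called in any. Of 303 refitted differences of 18 named genes, 292 kept direction and side of the threshold, 4 (Cd109, whose difference ran from 1.07 to 1.92) lost the call and 7 turned sign. The 7 were Id1 without transgenic mouse 1 (-0.06) or wild-type mouse 2 (-0.15), Tgfb1 without wild-type mouse 4 (-0.066) or both mice numbered 4 (-0.045), and Tgfbr2 with the mean of all spots (-0.11), the dimmest spot (-0.32) or without wild-type mouse 4 (-0.065). With 1 mouse left out, Id1 ran from -0.15 to 0.18, Tgfb1 from -0.066 to 0.25 and Tgfbr2 from -0.065 to 0.18. In all 7 the adjusted p was over 0.6, and the cause was not tested. Sost, Bambi and Hjv have no value with dim genes left out.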

Other observations

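Of the 45 signalling genes, 16 were read by several spots above the floor. In 10 of these (62.5%) all such spots pointed the same way, beside 65.1% of the 4009 genes with several such spots on the array. The 6 with spots of both signs were Acvr2a, Ltbp4, Smad4, Smurf2, Tgfb3 and Tgfbr2.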
